A study of Mus musculus with 18 samples.

Results

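The genes described here are the 39 protein-coding Hox genes of the HoxA, HoxB, HoxC and HoxD clusters in C2C12 mouse muscle cells. They were picked by symbol among the 55450 gene IDs of the count table. HoxA contributed 11 genes, HoxB 10, HoxC 9 and HoxD 9, and 25 of the 39 had enough counts to be tested. Polyadenylated RNA of 18 libraries was counted in 6 groups of 3 libraries. C2C12 is an established myoblast line that came from adult mouse thigh muscle, and it fuses into myotubes when serum is lowered. Each of 3 lines was sampled as growing myoblasts and as myotubes on day 3 in low horse serum. The control was a sorted population that had received only the pX458 vector, which carries Cas9 and EGFP. The other lines, labelled Dlk1-Dio3 overexpressor and Dlk1-Dio3 knockout, were grown from single cells after editing with a pair of guide RNAs at the proximal promoter of Meg3, a noncoding RNA gene of the imprinted Dlk1-Dio3 locus. Each genotype was thus 1 clone, set against an uncloned population, and genotype and clone cannot be told apart. Replicates A, B and C were samples of the same line, so p-values measure only the spread between these samples, which may be technical.

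Hox genes encode homeodomain transcription factors that give cells along the body axis and the limbs their positional identity. Within a cluster the genes lie in the order of their number, and low numbers are generally used in anterior and high numbers in posterior or distal structures. Hox proteins bind DNA together with Pbx, Meis and Pknox cofactors. Trithorax group proteins maintain active Hox clusters and Polycomb group proteins maintain silent ones, and cells taken from adult tissue often keep the Hox pattern of their site of origin. Positions 1 to 3 are called anterior below, 4 to 8 central and 9 to 13 posterior.

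Library totals ran from 41544358 to 79140702 counts, so that 3 counts, used as the detection floor, corresponded to 0.0375 to 0.0693 CPM per library (CPM, the count scaled to a common library size with TMM factors). Meg3 counts ranged from 5222 to 7763 over the 6 overexpressor libraries and were 0 in every control and knockout library, so this gene checked the overexpressor label only. The 10 myogenic markers were detected in every group, and their summed level was 1799 to 2017 CPM in control, 3425 to 4158 CPM in overexpressor and 8903 to 10661 CPM in knockout myoblasts. In myotubes the sums were 10831 to 11357 CPM in control, 18107 to 19881 CPM in overexpressor and 22976 to 27725 CPM in knockout cells. Markers of myogenic differentiation thus moved with line and stage alongside the Hox values below, and their part in those values was not tested. Of 5 markers each, endothelial genes summed to at most 0.669 CPM, adipocyte genes to at most 0.146 CPM, immune genes to at most 2.27 CPM and Schwann or neural genes to at most 5.24 CPM. Of the Schwann or neural genes only Sox10 was 0 in all groups, and 4 of the 5 passed the filter on low counts. Replicate C of the overexpressor myotubes stood apart from its group, with a chi-square per degree of freedom of 119 and 114 against A and B, where A and B gave 23.1.

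In control myoblasts the Hox transcripts came almost wholly from HoxC and HoxA. The summed level was 253 ± 5.38 CPM for HoxC and 154 ± 3.93 CPM for HoxA (SD, n = 3), against 0.271 ± 0.0232 CPM for HoxB and 0 for HoxD. Posterior genes made up 208 ± 4.71 CPM of HoxC and 112 ± 2.16 CPM of HoxA. Hoxc10, a hindlimb and lumbar gene, was the most abundant member at 94.1, 99.97 and 97.4 CPM in replicates A, B and C. Per kilobase of exon, Hoxc10 stood at 50.9 ± 1.55 CPM, Hoxc11 at 26.5 ± 1.10, Hoxa11 at 17.0 ± 0.628, Hoxa10 at 12.8 ± 0.251, Hoxc9 at 11.7 ± 0.389 and Hoxc13 at 10.8 ± 0.0713 (SD, n = 3). Each of these stood above the next by more than the sum of their SDs. Hoxc6 at 9.43 ± 0.828 and Hoxa7 at 8.27 ± 0.426 CPM per kilobase differed by less than the sum of their SDs. Hoxa6, Hoxc12 and Hoxc5 lay between 1.80 and 2.15 CPM per kilobase, each within the summed SDs of the next. The lowest members of the active clusters were Hoxa4 at 0.446 ± 0.102 and Hoxa2 at 0.326 ± 0.0651 CPM per kilobase.

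**Figure D1:**
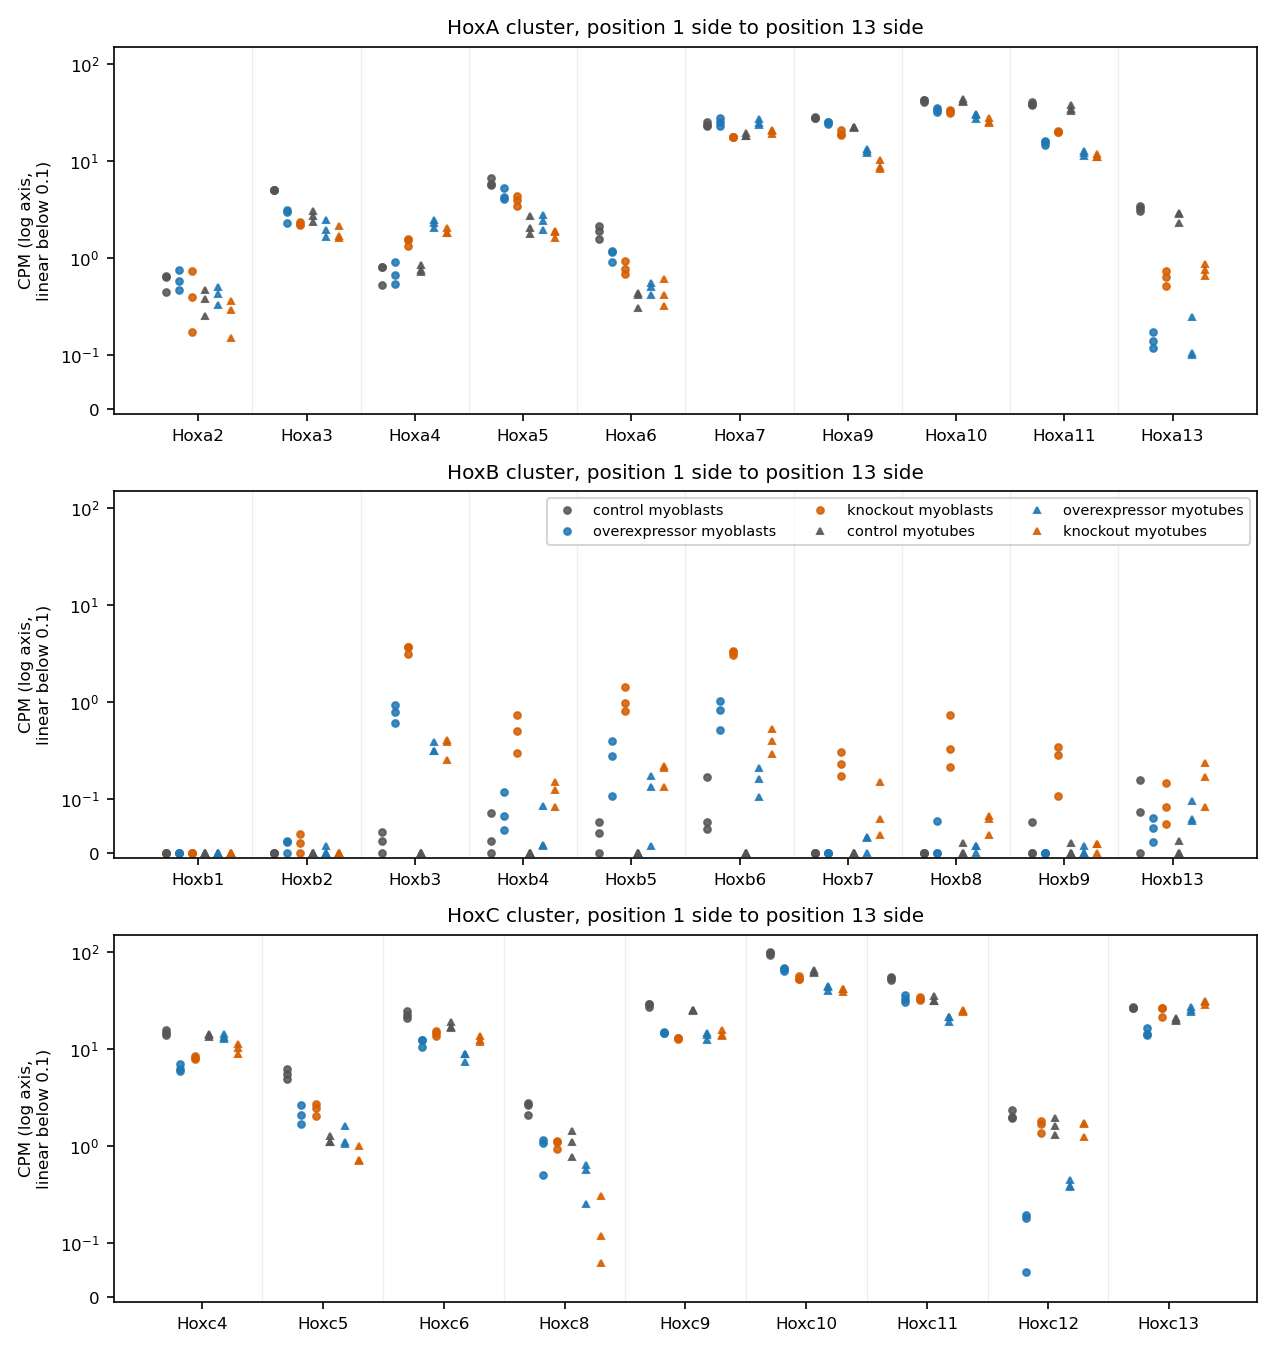
CPM of the HoxA, HoxB and HoxC genes described here in all 18 libraries on a log axis that is linear below 0.1. Points are libraries, circles myoblasts and triangles myotubes, coloured by line. HoxA and HoxC genes were detected in all groups, whereas control points of HoxB lie at or near 0.

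**Figure D2:**
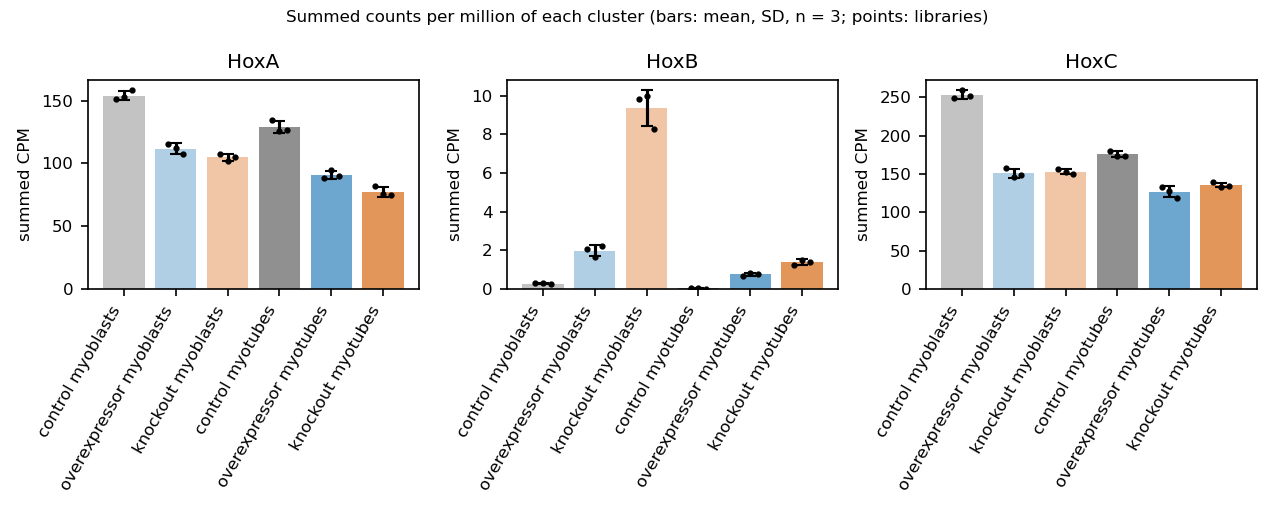
Summed CPM of HoxA, HoxB and HoxC by group on linear axes from 0, whose ranges differ (bars, mean; error bars, SD, n = 3; points, libraries). HoxA and HoxC are highest in control cells at both stages, and HoxB is highest in knockout myoblasts at 9.36 CPM.

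HoxD gave almost no counts in any line. Its 9 genes collected 10 counts over all 18 libraries, all in Hoxd9 and Hoxd10, and Hoxd1, Hoxd3, Hoxd4, Hoxd8, Hoxd11, Hoxd12 and Hoxd13 were 0 throughout. No HoxD gene passed the filter on low counts. Zero counts limit each gene to below 0.0375 to 0.0693 CPM per library, counting error only.

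The HoxB cluster, on chromosome 11 (chr11:96194316-96368256, mm10, plus strand), was at or near 0 in the control and was detected in both clones. In myoblasts the summed HoxB level was 0.271 CPM in control, 1.98 ± 0.302 in overexpressor and 9.36 ± 0.929 CPM in knockout cells (SD, n = 3), and the 3 groups did not overlap. The HoxB total of knockout myoblasts was nevertheless 3.503% of the summed Hox level in those cells. Only Hoxb3, Hoxb4, Hoxb5, Hoxb6 and Hoxb8 passed the filter, and they passed through the groups in which they were high, so their counts of calls are given as a description. All 5 were called higher in knockout myoblasts, and Hoxb3, Hoxb5 and Hoxb6 in overexpressor myoblasts (adjusted p under 0.05, edgeR quasi-likelihood test, Benjamini-Hochberg over 17912 genes). Among all tested genes 26.4% were called higher in knockout and 20.7% in overexpressor myoblasts.

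Hoxb3, a hindbrain and neck gene, had 0, 2 and 1 counts in the control myoblasts, 47, 28 and 34 in the overexpressor and 171, 205 and 176 in the knockout myoblasts. No control library came near the lowest clone library. The ratio to the control was 39.1 (exact 95% counting interval 13.02 to 192) in the overexpressor and 175 (59.7 to 854) in the knockout clone. An antisense gene, Hoxb3os, covers 52.9% of the Hoxb3 exon length and had 9 counts in knockout myoblasts and 1 in overexpressor myoblasts. The strand setting of the counting is not given, so a part of antisense reads in the Hoxb3 counts was not tested. Hoxb6, the HoxB gene with the highest level per kilobase in control myoblasts, had 9, 3 and 2 counts in control, 26, 38 and 44 in overexpressor and 153, 186 and 171 in knockout myoblasts. Its log2 fold change was 3.04 ± 0.43 (SE) in the overexpressor and 5.09 ± 0.38 in the knockout. Hoxb5 had 2, 3 and 0 counts in control, 20, 5 and 12 in overexpressor and 67, 54 and 45 in knockout myoblasts. The overexpressor log2 fold change of Hoxb5 was 2.91, and 2.45 without replicate A, where its call was lost.

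The other HoxB genes had fewer counts in the knockout myoblasts. Hoxb4, known for its role in blood stem cells, had 14, 40 and 28 counts there, against 4, 0 and 1 in control myoblasts. Hoxb8 had 34, 18 and 12 counts in knockout and 0 in control myoblasts, which makes it at least 7.04-fold higher against the floor of 3 counts per library. The genes that did not pass the filter were looked at after their values were seen. Hoxb7 had 8, 17 and 13 counts and Hoxb9 5, 19 and 16 counts in knockout myoblasts, against 0 and 3 in all control myoblasts together. Fitted with no filter, Hoxb7 had an edgeR adjusted p of 0.000152 and Hoxb9 of 0.00569. Hoxb13, at the far end of the cluster, had 0, 4 and 7 counts in control and 4, 8 and 3 in knockout myoblasts, and these overlapped. Hoxb1 was 0 in all libraries, and Hoxb2 had at most 2 counts in any.

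To show the sequence at which HoxB transcripts start, the 300-base promoter windows of Hoxb4 (chr11:96318017-96318316, plus strand) and Hoxb8 (chr11:96281655-96281954, plus strand) are printed from RefSeq on GRCm38.p6. Each runs from 250 bases before to 50 after the start, in lower case, with CG dinucleotides in capitals.
Hoxb4: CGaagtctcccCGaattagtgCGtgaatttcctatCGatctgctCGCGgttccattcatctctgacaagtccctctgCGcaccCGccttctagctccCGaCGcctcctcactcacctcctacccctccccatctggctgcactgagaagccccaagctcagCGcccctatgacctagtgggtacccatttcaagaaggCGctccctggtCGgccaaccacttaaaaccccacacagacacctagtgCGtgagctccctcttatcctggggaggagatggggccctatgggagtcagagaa
Hoxb8: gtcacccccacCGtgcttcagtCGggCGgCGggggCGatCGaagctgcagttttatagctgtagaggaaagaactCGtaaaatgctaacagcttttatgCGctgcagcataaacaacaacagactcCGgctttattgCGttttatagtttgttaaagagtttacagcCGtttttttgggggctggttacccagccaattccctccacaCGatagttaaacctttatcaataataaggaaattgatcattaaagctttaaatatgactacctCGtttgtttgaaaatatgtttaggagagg
The Hoxb4 window holds 14 CG dinucleotides and the Hoxb8 window 13, where the median over all 32851 windows of this length was 7. RefSeq windows were at hand for 22 of the 39 members (24 windows). The HoxD windows, of genes with few or no counts here, had a median of 20 CG dinucleotides (n = 10) and the HoxA windows 17.5 (n = 10). The letters TATAAA, searched on both strands, occurred in 4 member windows, among them Hoxb8 with 2, and in 13.6% of all windows. The letters TTTATG occurred in 5 member windows, among them Hoxb8 with 2, and in 11.9% of all windows. The Pbx-Hox composite TGATTNAT occurred in 2 member windows and in 3.22% of all windows. These matches describe letters only.

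In myotubes HoxB was lower than in myoblasts of the same clone but still above the control. The summed level was 0.0203 ± 0.0191 CPM in control, 0.752 ± 0.0929 in overexpressor and 1.37 ± 0.149 CPM in knockout myotubes (SD, n = 3). Hoxb3 had 0 counts in all control myotubes, 21, 25 and 28 in overexpressor and 24, 23 and 12 in knockout myotubes, and was at least 5.64-fold and 5.82-fold higher against the floor. Hoxb6 had 0 counts in control, 7, 13 and 15 in overexpressor and 17, 24 and 25 in knockout myotubes, at least 2.64-fold and 6.76-fold higher. Hoxb5 had 0 in control, 9, 14 and 1 in overexpressor and 13, 8 and 10 in knockout myotubes. Hoxb13, outside the filter, had 0, 1 and 0 counts in control, 4, 5 and 7 in overexpressor and 5, 14 and 8 in knockout myotubes. Hoxb13 was named after its values were seen, and with no filter its edgeR adjusted p was 0.0429 in the overexpressor and 0.00166 in the knockout. In the same fit Hoxb7 had an adjusted p of 0.205 and 0.00654, and Hoxb2 and Hoxb9 passed in neither clone. From myoblasts to myotubes of the knockout clone all 5 tested HoxB genes fell, with log2 fold changes from -2.07 ± 0.55 (SE, Hoxb4) to -3.31 ± 0.26 (Hoxb3). Among all tested genes 35.6% were called lower in that comparison. These 5 passed the filter through the groups in which they were high, knockout myoblasts among them, so their count is a description.

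The HoxA cluster, on the minus strand of chromosome 6, was active in all lines, and its summed level was lower in both clones than in the control. In myoblasts HoxA summed to 112 ± 4.34 CPM for the overexpressor clone and 105 ± 2.72 CPM for the knockout clone (SD, n = 3), both below the control at 154 CPM without overlap. Over HoxA and HoxC together, 15 of 20 genes fell and 0 rose in overexpressor myoblasts, where edgeR called 19.7% of all tested genes lower. At an unadjusted p under 0.05 the count of higher genes was also 0, and DESeq2 called 0 higher and 16 lower, Hoxa5 (edgeR adjusted p 0.0503) being the additional gene. In knockout myoblasts 15 of the 20 fell and 2 rose, where 26.6% of all tested genes were called lower. The median log2 fold change of the 20 was -0.82 in the overexpressor and -0.67 in the knockout, beside 0.02 over all tested genes in each. In bulk RNA, fewer cells using a gene and less RNA per cell cannot be told apart.

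Hoxa13, which patterns the distal limb, showed the lowest log2 fold changes of the tested Hox genes in myoblasts of both clones. It had 185, 159 and 147 counts in control myoblasts, 6, 8 and 6 in the overexpressor and 34, 35 and 29 in the knockout. The 3 groups were far apart, with the overexpressor lowest. The log2 fold change was -4.49 ± 0.28 (SE) in the overexpressor and -2.38 ± 0.22 in the knockout (edgeR adjusted p 3.83e-10 and 5.76e-08). The promoter window of Hoxa13 (chr6:52260831-52261130, minus strand, GRCm38.p6, RefSeq) is printed beside that of Hoxa10 (chr6:52240805-52241104, minus strand), an abundant posterior neighbour with smaller differences, with the same use of capitals.
Hoxa13: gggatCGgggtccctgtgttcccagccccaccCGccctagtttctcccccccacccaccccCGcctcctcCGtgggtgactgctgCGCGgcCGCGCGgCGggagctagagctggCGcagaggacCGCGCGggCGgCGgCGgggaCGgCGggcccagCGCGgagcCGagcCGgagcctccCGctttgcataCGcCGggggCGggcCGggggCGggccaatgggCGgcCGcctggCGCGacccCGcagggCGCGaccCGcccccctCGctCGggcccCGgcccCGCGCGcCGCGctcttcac
Hoxa10: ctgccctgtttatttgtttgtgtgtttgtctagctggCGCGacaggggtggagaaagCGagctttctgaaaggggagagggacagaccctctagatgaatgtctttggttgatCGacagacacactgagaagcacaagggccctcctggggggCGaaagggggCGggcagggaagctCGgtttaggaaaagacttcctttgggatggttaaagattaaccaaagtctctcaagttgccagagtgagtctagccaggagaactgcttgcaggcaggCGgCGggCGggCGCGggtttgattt
Hoxa13 has 45 CG dinucleotides and 81% G or C in this window, the highest CG count of the member windows, and Hoxa10 has 12 in this window, the one of 2 at its annotated 5′ end. Hoxa10 stood at 41.0, 42.6 and 42.2 CPM in control, 35.5, 33.6 and 32.1 in overexpressor and 33.1, 31.4 and 33.6 CPM in knockout myoblasts. It fell by 0.32 and 0.36 on the log2 scale.

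Hoxa11, a gene of the middle limb segment, had the most transcript per kilobase of the HoxA genes in the control, whereas Hoxa10 stood above it in all 4 clone groups. Its level was 38.4, 37.8 and 40.5 CPM in control, 15.9, 16.2 and 14.5 in overexpressor and 20.2, 19.8 and 20.3 CPM in knockout myoblasts. It fell by 1.324 and 0.95 on the log2 scale, beyond any spread between replicates. The antisense gene Hoxa11os overlaps 34.98% of Hoxa11 exon length and fell too, with log2 fold changes of -1.34 ± 0.11 (SE) and -1.63 ± 0.11. Whether counting used strand is not given in the sources used here, so reads of this pair may have been shared. Hoxa9 fell in the knockout, by 0.52, and its overexpressor value was -0.17 ± 0.08 (adjusted p 0.103).

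Central and anterior HoxA genes were mixed in myoblasts. Hoxa4, a neck-level gene, rose in knockout myoblasts by 1.07 ± 0.20 on the log2 scale, with 28, 42 and 36 counts in control, 27, 42 and 29 in overexpressor and 74, 74 and 86 in knockout cells. The control and overexpressor counts of Hoxa4 overlapped. Hoxa6 had 101, 112 and 71 counts in control, 46, 53 and 51 in overexpressor and 36, 38 and 52 in knockout myoblasts, and fell in both. Hoxa3 fell in both clones, Hoxa5 and Hoxa7 fell in the knockout, and Hoxa2 passed in neither.

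**Figure D3:**
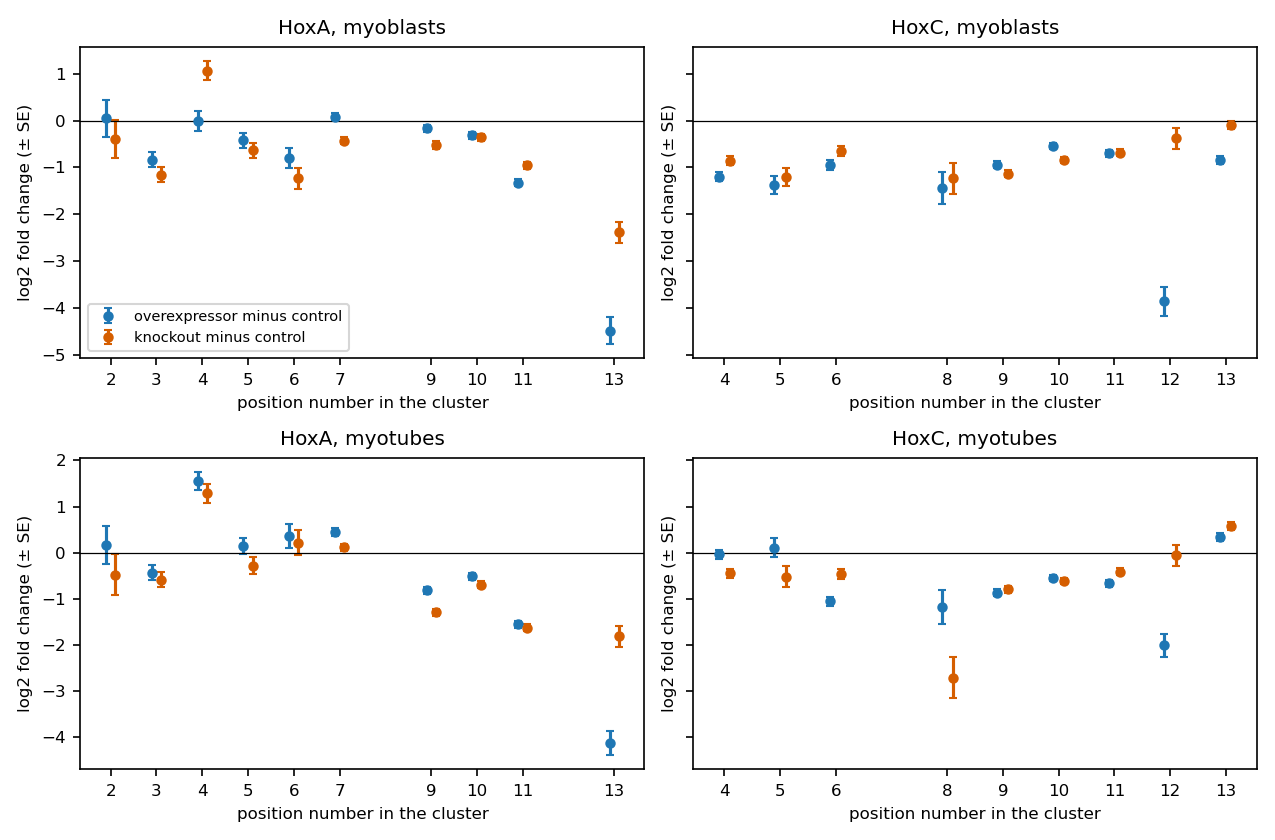
Log2 fold change against control (points) with SE (bars) by position number for HoxA and HoxC, in myoblasts (top) and myotubes (bottom). Hoxa13 is lowest in both clones within HoxA, Hoxc12 is low in the overexpressor only, and Hoxa4 lies above 0 in myotubes of both clones.

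HoxC (chr15:102921103-103036852, plus strand) fell across the cluster in overexpressor myoblasts. All 9 genes fell there and 7 of 9 in knockout myoblasts, where 19.7% and 26.6% of all tested genes were called lower. The summed level was 151 ± 6.21 and 153 ± 3.10 CPM against 253 CPM in control (SD, n = 3). Hoxc10 stood at 69.0, 66.5 and 64.2 CPM in overexpressor and at 56.2, 52.7 and 52.7 CPM in knockout myoblasts, all below the lowest control value of 94.1 CPM. Its log2 fold changes were -0.55 ± 0.06 and -0.85 ± 0.06 (SE). Hoxc12 had 105, 103 and 107 counts in control, 9, 9 and 2 in overexpressor and 78, 100 and 77 in knockout myoblasts. The overexpressor counts were far below both other groups, with a log2 fold change of -3.86 ± 0.31 (edgeR adjusted p 8.62e-09). The knockout value of Hoxc12 was -0.38 ± 0.22 with an adjusted p of 0.161. Hoxc8, known from the brachial and thoracic levels, had 150, 108 and 118 counts in control, 54, 54 and 22 in overexpressor and 53, 61 and 53 in knockout myoblasts. It fell by 1.44 and 1.23 on the log2 scale. Hoxc13, a hair follicle and nail gene, stood at 26.6, 26.9 and 26.6 CPM in control and 16.4, 14.0 and 14.4 in overexpressor myoblasts, while the knockout values of 26.5, 26.8 and 21.6 CPM overlapped the control. Hoxc4, Hoxc5, Hoxc6, Hoxc9 and Hoxc11 fell in both clones, by 0.65 to 1.38 on the log2 scale.

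**Figure D4:**
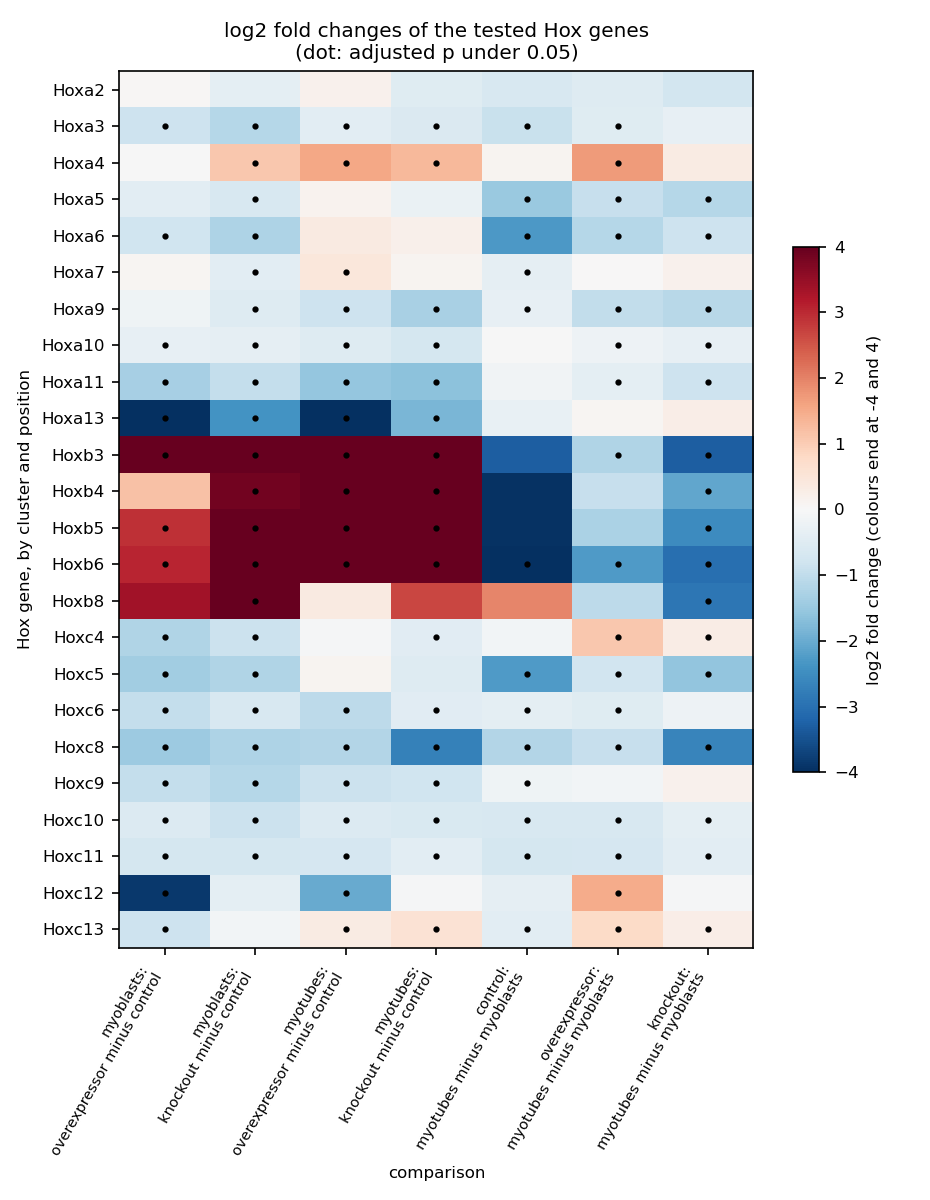
Log2 fold changes of the tested Hox genes described here (rows, by cluster and position) in 7 comparisons (columns), red higher and blue lower, with colours ending at -4 and 4. Dots mark adjusted p under 0.05. HoxB is red in the clones, and most HoxA and HoxC genes are blue in myoblasts of both clones. Colours of HoxB genes against groups at 0 are fitted values and no bounds.

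In myotubes posterior HoxA and HoxC genes were mostly lower in both clones, and the genes higher than control were few. Among the 9 posterior HoxA and HoxC genes, 8 fell in the overexpressor and 7 in the knockout clone, and 1, Hoxc13, rose in each. Among the 11 anterior and central genes, 3 rose and 3 fell in the overexpressor, and 2 rose and 4 fell in the knockout. Over the 20 genes this gave 4 higher and 11 lower in the overexpressor, where 26.2% and 30.9% of all tested genes were called higher and lower. In the knockout it gave 3 higher and 11 lower, where the background was 31% higher and 37% lower. The counts of higher genes were thus near or below the background, and those of lower genes above it. Posterior HoxA summed to 102 ± 4.69 CPM in control, 54.1 ± 1.62 in overexpressor and 47.1 ± 2.82 CPM in knockout myotubes, whereas central HoxA summed to 21.9 ± 0.462, 30.4 ± 1.76 and 24.2 ± 0.770 CPM (SD, n = 3). Central HoxC was lower in the clones, at 33.5 ± 1.77 CPM in control, 23.6 ± 1.19 in overexpressor and 23.7 ± 2.05 CPM in knockout myotubes, and 2 of its 4 genes fell in the overexpressor and 3 in the knockout. No test of one position class against another was made.

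Hoxa11 stood at 38.0, 33.0 and 34.2 CPM in control, 12.1, 12.6 and 11.2 in overexpressor and 11.7, 11.1 and 11.1 CPM in knockout myotubes. Its log2 fold changes of -1.55 ± 0.07 and -1.63 ± 0.08 (SE) were both beyond the spread of replicates, and the clones overlapped each other. Hoxa13 had 153, 124 and 127 counts in control, 7, 8 and 18 in overexpressor and 38, 45 and 42 in knockout myotubes, with log2 fold changes of -4.13 ± 0.26 and -1.82 ± 0.22. Hoxa9 fell by 0.82 and 1.30. Hoxc12 again fell in the overexpressor only, with 85, 57 and 108 counts in control, 30, 31 and 27 in overexpressor and 99, 104 and 59 in knockout myotubes. Hoxc8 reached its lowest counts in knockout myotubes, at 18, 7 and 3, against 58, 34 and 79 in control and 17, 45 and 46 in overexpressor myotubes. Its log2 fold change was -2.71 ± 0.45 in the knockout (edgeR adjusted p 3.59e-05). In the overexpressor its adjusted p of 0.0108 became 0.0644 without control replicate C and 0.0516 without overexpressor replicate A. Hoxa3 fell in both clones, but its overexpressor adjusted p of 0.0328 rose above 0.05 in 9 alternatives, up to 0.338 without overexpressor replicate C.

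Within HoxA and HoxC, the genes higher in myotubes of the clones were led by Hoxa4. It had 38, 37 and 42 counts in control, 165, 186 and 147 in overexpressor and 106, 109 and 97 in knockout myotubes, and its log2 fold changes were 1.55 ± 0.19 and 1.28 ± 0.20 (SE). Hoxc13 stood at 20.8, 19.3 and 20.04 CPM in control, 26.9, 25.1 and 23.9 in overexpressor and 31.2, 30.4 and 28.8 CPM in knockout myotubes, a rise of 0.33 and 0.59. Hoxa7 rose in the overexpressor, from 19.5, 18.2 and 17.98 to 24.98, 27.0 and 23.7 CPM, and was 21, 20.4 and 18.9 CPM in the knockout. Its knockout value of 0.12 on the log2 scale (adjusted p 0.210) passed in 3 alternatives, at 0.25 with DESeq2 size factors and DESeq2 and at 0.19 without overexpressor myotube replicate C. Every clone library of Hoxa4 and Hoxc13 lay above every control library.

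Set directly against each other, the clones differed in Hoxa13 and Hoxc12 at both stages and in HoxB mainly in myoblasts. In myoblasts 4 of the 20 HoxA and HoxC genes were higher and 8 lower in the overexpressor than in the knockout, near the 25.7% and 26.9% of all tested genes for the first and above it for the second. Hoxc12 was lower by 3.49 ± 0.31 (SE) on the log2 scale and Hoxa13 by 2.11 ± 0.32, whereas Hoxa7 was higher by 0.51 ± 0.08. All 5 tested HoxB genes were lower in the overexpressor, a description only, as they passed the filter through groups in which they were high. In myotubes 7 of the 20 were higher and 5 lower, close to the background of 30.6% and 29.1%. That split was 8 to 3 with library totals and 5 to 5 with DESeq2 size factors. The total with HoxB, 13 called genes, was 8 without replicate C of the overexpressor myotubes. Of the 5 HoxB genes 1, Hoxb6, was lower in overexpressor than in knockout myotubes. Hoxa13 and Hoxc12 remained lower in the overexpressor myotubes by 2.31 ± 0.28 and 1.95 ± 0.25, and Hoxc8 was higher by 1.53 ± 0.47, a call lost without knockout replicate C (adjusted p 0.0505).

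Differentiation of the control line lowered most HoxA and HoxC genes and raised none. Of the 20 genes 13 fell and 0 rose in control myotubes, where 28.8% of all tested genes were called lower and 33.9% higher. DESeq2 and an unadjusted p under 0.05 gave 0 higher genes too. Their median log2 fold change was -0.40 beside 0.07 over all tested genes. Hoxa6 fell furthest, from 101, 112 and 71 to 23, 18 and 17 counts, a log2 fold change of -2.29 ± 0.24 (SE). Hoxc5 fell from 294, 323 and 223 to 58, 48 and 71 counts (-2.26 ± 0.21), and Hoxa5, which acts in lung and neck-level skeleton, fell from 5.73, 5.77 and 6.77 to 1.76, 2.04 and 2.71 CPM (-1.48 ± 0.17). Hoxc5 and Hoxc10 share 166 exonic bases on one strand. Hoxc10 fell by 0.63, to 65.4, 60.9 and 62.0 CPM. Hoxa10 and Hoxa4 showed log2 values of 0.00 ± 0.07 and 0.12 ± 0.22, and their groups overlapped. With library totals 18 of the 20 genes were called lower, among them Hoxa10 at -0.24 (adjusted p 0.00615). Hoxc9 (adjusted p 0.0412) passed the threshold by little and lost its call in 11 alternatives, up to 0.177 with no filter.

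In the overexpressor 5 of the 20 genes rose and 11 fell with differentiation, where 29.8% and 33% of all tested genes were called higher and lower. In the knockout 2 rose and 10 fell, where 29.8% and 35.6% were. The split in the knockout was 5 to 9 with DESeq2 size factors and 0 to 12 with library totals. Among those that rose in the overexpressor were Hoxa4 (1.69 ± 0.20, SE), Hoxc12 (1.48 ± 0.35), Hoxc4 (1.06 ± 0.10) and Hoxc13 (0.76 ± 0.09), on the log2 scale. In the knockout Hoxc4 (0.31 ± 0.10) and Hoxc13 (0.27 ± 0.09) rose. The call of Hoxc4 was lost without myotube replicate A (adjusted p 0.0582) and that of Hoxc13 without myoblast replicate C (0.0822), and both were lost with library totals.

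Whether a clone changed differently from the control was tested as the difference of the 2 changes. It passed for 9 of the 20 genes in the overexpressor, 8 with a more positive and 1 with a more negative change, where 39% of all tested genes passed in either direction. In the knockout 12 of 20 passed, 8 more positive and 4 more negative, where 50.1% of all genes did. These totals lay near the background. The knockout split was 10 to 2 with DESeq2 size factors and 10 to 3 with library totals. Large differences were those of Hoxc12 (1.85 ± 0.42, SE) and Hoxa4 (1.56 ± 0.29) in the overexpressor and of Hoxc8 (-1.48 ± 0.57) and Hoxa6 (1.45 ± 0.35) in the knockout. The Hoxc8 value lost its call in 11 alternatives, with adjusted p up to 0.118 without knockout myotube replicate C. Both tests share the control libraries. Of the 5 HoxB genes 0 passed in either, DESeq2 gave 0, and 1 had an unadjusted edgeR p under 0.05, in the overexpressor.

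Noncoding genes inside the clusters were read beside their neighbours. Of 12 such genes listed, 10 were in the table and 4 were tested. Hotair, which lies in HoxC between Hoxc11 and Hoxc12, had 237, 220 and 160 counts in control, 133, 102 and 107 in overexpressor and 155, 186 and 187 in knockout myoblasts. It fell in overexpressor myoblasts by 0.74 and in myotubes of both clones by 1.24 and 1.52. Hoxaas2, antisense within Hoxa3, had 17, 27 and 12 counts in control and 57, 52 and 67 in knockout myoblasts, and rose by 1.59 there and by 1.24 and 1.502 in overexpressor and knockout myotubes. Hoxb5os had 3, 2 and 6 counts in knockout myoblasts and 0 in all other libraries. Exons of 16 of the 39 members overlap another gene, 9 of them on the same strand, and such values may include shared reads.

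The nearest tested protein-coding genes outside the clusters, 3 on each side, were compared with the Hox genes beside them. In knockout myoblasts the 6 HoxB neighbours had 3 higher and 2 lower calls with a median log2 fold change of 0.06, and in overexpressor myoblasts 1 was called, lower, with a median of -0.09. Over all tested genes 26.4% were higher and 26.6% lower in knockout myoblasts, and 20.7% and 19.7% in overexpressor myoblasts. Ttll6, 28865 bases from the posterior end of HoxB, had 17, 19 and 8 counts in control and 3, 0 and 0 in knockout myoblasts (fitted log2 fold change -3.77). Skap1, 96337 bases beyond the anterior end, had 29, 23 and 12 counts in control and 1, 1 and 4 in overexpressor myoblasts (-3.22). In overexpressor myotubes Skap1 was higher instead, at 134, 105 and 120 counts against 12, 11 and 10 in control. Fitted fold changes against counts near the floor are no bounds. The 6 HoxC neighbours ranged from -0.40 to 0.08 in knockout and from -0.36 to 0.00 in overexpressor myoblasts. Of the 6 HoxA neighbours 3 were called lower in myoblasts of each clone, down to a fitted -4.83 for Jazf1 in the knockout. Jazf1 had 19, 29 and 16 counts in control and 0, 2 and 0 in knockout myoblasts. In knockout myotubes 5 of these 6 neighbours were lower and 1 higher (median -1.15), where 37% and 31% of all tested genes were. In overexpressor myotubes 1 was lower and 0 higher (median -0.09), where 30.9% and 26.2% of all tested genes were. Around HoxD 2 of the 6 neighbours were called higher in knockout and 1 in overexpressor myoblasts, and 0 were called lower in either. Their log2 fold changes ranged from -0.31 to 0.525 in knockout and from -0.26 to 0.545 in overexpressor myoblasts. Among them Mtx2 rose in knockout myoblasts by 0.46, and Lnpk had values of 0.07 and 0.15 that did not pass.

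All 9 genes of the Pbx, Meis and Pknox families, the DNA-binding partners of Hox proteins, were expressed and tested. Differentiation of the control lowered 8 of them, where 28.8% of all tested genes were lower, and raised Pbx3 (0.38 ± 0.10, SE). Pknox2 stood at 21.3, 21.4 and 18.6 CPM in control, 23.1, 21.5 and 23.6 in overexpressor and 89.6, 97.1 and 94.9 CPM in knockout myoblasts, a rise of 2.20 ± 0.07 on the log2 scale in the knockout. In knockout myotubes it was 91.2, 94.8 and 97.4 CPM, against 15.2, 14.0 and 14.4 in control. Meis2 stood at 39.6, 40.7 and 43.6 CPM in control, 102, 113 and 93.7 in overexpressor and 21.4, 21.3 and 19.9 CPM in knockout myoblasts, so that it rose in one clone by 1.318 and fell in the other by 0.98. Meis1 fell in both clones at both stages, by 0.30 to 1.02. Over the list 3 rose and 2 fell in overexpressor myoblasts, 1 rose and 5 fell in knockout myoblasts, 4 rose and 3 fell in overexpressor myotubes, and 5 rose and 4 fell in knockout myotubes. The shares of all tested genes called higher and lower in these were 20.7% and 19.7%, 26.4% and 26.6%, 26.2% and 30.9%, and 31% and 37%. The list's median log2 fold change in these 4 comparisons was 0.10, -0.26, 0.01 and 0.52, beside medians of all tested genes between -0.07 and 0.02.

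**Figure D5:**
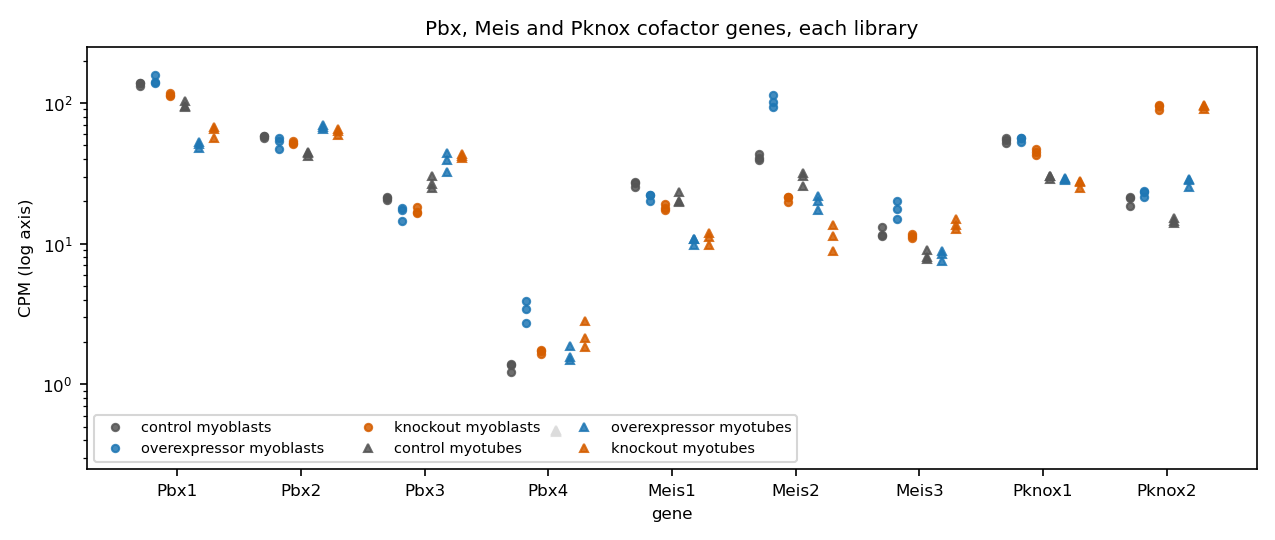
CPM of the 9 cofactor genes in each library on a log axis, circles myoblasts and triangles myotubes, coloured by line. Pknox2 is near 95 CPM in knockout cells at both stages, where the control lies between 14.0 and 21.4 CPM.

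Regulators of Hox transcription moved in both directions. Of 27 listed genes 25 were tested, and Cdx2 and Cdx4 were 0 in all libraries. In myoblasts 4 rose and 3 fell in the overexpressor and 7 rose and 7 fell in the knockout, and in myotubes 5 rose and 11 fell in each clone. Of all tested genes, 20.7% rose and 19.7% fell in overexpressor and 26.4% and 26.6% in knockout myoblasts, and 26.2% and 30.9% in overexpressor and 31% and 37% in knockout myotubes, so most of these counts were near or below the background. The list's median log2 fold change in these 4 comparisons was -0.01, -0.11, -0.20 and -0.42, beside medians of all tested genes between -0.07 and 0.02. The genes named next are examples and do not stand for the list. Kmt2a, a trithorax group methyltransferase, fell in both clones at both stages, by 0.46 to 0.82 on the log2 scale, and the Polycomb gene Cbx7 fell by 0.28 to 1.25. Dot1l, a histone H3 methyltransferase, rose in all 4 comparisons, by 0.30 to 1.00. Rarb, a retinoic acid receptor, had 36, 57 and 44 counts in control myoblasts but 1, 2 and 0 in the overexpressor and 4, 1 and 4 in the knockout. Gdf11, a secreted factor of posterior patterning, stood at 35.2 CPM on average in control, 144 in overexpressor and 121 CPM in knockout myotubes, with log2 fold changes of 2.04 ± 0.08 and 1.78 ± 0.08 (SE). Among 8 homeobox genes outside the clusters 3 were tested. In myoblasts 0 of these rose and 2 fell in the overexpressor, and 1 rose and 1 fell in the knockout. In myotubes 0 rose and 2 fell in the overexpressor, and 1 rose and 2 fell in the knockout. Meox2 had 3, 4 and 2 counts in control myoblasts, 2, 0 and 0 in the overexpressor and 875, 929 and 1031 in the knockout, a log2 fold change of 8.18 ± 0.31. Evx1 and Evx2, which flank HoxA and HoxD, had at most 3 counts in any library.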

How the data were processed

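RNA-seq of 18 libraries, 3 in each of 6 groups, was used as deposited gene counts. Per the submitters' processing notes, the authors' tools included STAR 2.7.9a, featureCounts from Subread 2.0.3, FastQC 0.11.7 and DESeq2 1.32.0, with build mm10. The deposited counts were whole numbers per Ensembl gene ID. The annotation release and the strand setting are not given in the sources used here. A deposited table of transformed values was not used, and 0 value columns lacked a sample.

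Gene IDs were matched to GENCODE M21 (55190 of 55450; the others held 0.00589% of counts), which gave exon lengths and positions. Genes were filtered with filterByExpr (minimum count 10), scaled by TMM factors (0.895 to 1.08) and fitted over all 18 libraries with 1 coefficient per group in edgeR 4.0.16 (R 4.3.3, limma 3.58.1; quasi-likelihood test, robust, 12 residual degrees of freedom). P-values were adjusted by Benjamini-Hochberg over 17912 genes in each of 11 contrasts, with a threshold of 0.05. Intervals and the floor of 3 counts cover counting error only. The test was checked on simulated counts.

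Values per library are given for the member of each cluster with the highest level per kilobase in control myoblasts, and for up to 3 called members with the highest and lowest fold change per comparison, at 1 CPM or more in the higher group. For myotubes against myoblasts this was done in the control only. Other values are by lists of partner, regulator, marker and neighbouring genes. Hoxa10 and the HoxB genes outside the filter were named after their values were seen. Counts and sums cover all members, and the values of 1 member are not reported here. The members are set by symbol, but this gene family and the lists were chosen with earlier results of these data known. No batch is labelled. Every replicate pair differed by more than sampling noise. Alternatives were DESeq2 size factors, library totals, 2 other filters, DESeq2 1.42.0, fits to the groups compared, a replicate block and leaving out each library.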

Additional observations from a re-analysis of the deposited data

Results flagged for a closer look

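The change from myoblasts to myotubes differed from that of the control line, by a test of the difference itself, in the Hox genes that follow (edgeR quasi-likelihood test, adjusted p under 0.05). In the overexpressor clone, log2 differences of the changes (clone minus control) were found for Hoxa9 (-0.65), Hoxa7 (0.36), Hoxa6 (1.16), Hoxc4 (1.16), Hoxc13 (1.17), Hoxc5 (1.49), Hoxa4 (1.56) and Hoxc12 (1.85). In the knockout clone they were found for Hoxc8 (-1.48), Hoxa9 (-0.77), Hoxa11 (-0.68), Hoxa10 (-0.34), Hoxc10 (0.23), Hoxc11 (0.27), Hoxc9 (0.34), Hoxc4 (0.40), Hoxa7 (0.54), Hoxc13 (0.68) and Hoxa6 (1.45). Among all tested genes 39% and 50.1% passed this test, and the control libraries enter both. The knockout values of Hoxc8, Hoxc11, Hoxc10, Hoxc4, Hoxa10 and Hoxc9 and the overexpressor value of Hoxa7 lost their call under at least 1 alternative setting or without 1 library.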

How the results depend on the processing

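The 24 pairs of gene and comparison chosen by the naming rule kept their direction and call under the alternatives (167 values) and without each of the 18 libraries (432 values). The rule took called members with extreme fold changes, which favours such stability. Other called members lost their call in some alternatives. Those of Hoxc9 in overexpressor against knockout myoblasts and of Hoxa5 in overexpressor against knockout myotubes were lost in 18 alternatives each. Of the 11 counts of called Hox genes, 1 moved by more than 1.5 times. For overexpressor against knockout myotubes, 13 genes were called in the main design, 8 when only the groups compared were fitted, and 8 to 13 when 1 library was left out, the lowest without replicate C of the overexpressor myotubes. In the knockout response the count was 12, and 8 to 15 with 1 library left out. Other scalings moved the median log2 fold change over all tested genes by over 0.1 in 6 comparisons (DESeq2 size factors first, then library totals, where both are given). It went from 0.07 to -0.17 (library totals) in the control differentiation, from -0.08 to 0.04 (DESeq2 size factors) and -0.24 (library totals) in that of the knockout, from -0.04 to 0.07 and 0.11 in overexpressor and from -0.07 to 0.06 and -0.02 in knockout against control myotubes, and from -0.12 to 0.04 and -0.04 in the knockout and -0.05 to 0.06 and 0.14 in the overexpressor response. No called Hox gene changed sign under these scalings. The summed CPM of a cluster in a group moved by more than 1 SD in 6 of 24 cases with DESeq2 size factors and in 10 with library totals, and the order of the clones against control in HoxA, HoxB and HoxC stayed the same. The labels do not say that replicate letters pair the samples. Of 45 same-letter pairs of groups, 4 had a correlation of deviations above 0.1 (range -0.358 to 0.264). The median was -0.016, beside 0.00905 for other letters. Deviations from means of 3 libraries cannot exclude a pairing. With a replicate block the counts were 18 and 22 in overexpressor and knockout myoblasts against control, and 18 and 18 in myotubes. Depth limits HoxB and HoxD, where values near the floor of 3 counts carry wide counting intervals, and no more than 3 libraries per group and 1 clone per genotype limit every comparison.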
